A study of Mus musculus with 30 samples.

Results

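A set of 9 genes of dopamine signalling was followed through the whole-brain transcriptomes of Arid1b+/- mice and their wild-type littermates. The set comprised Th and Slc6a3, which mark the neurons that make and take up dopamine, the 5 dopamine receptor genes Drd1 to Drd5, and Ppp1r1b and Adora2a, which mark the striatal neurons that receive dopamine. They were chosen by name, and all 9 were present among the 19737 genes of the table.

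The study asked what the loss of 1 copy of Arid1b, a chromatin remodeler gene, does to the brain and whether early fluoxetine, a serotonin-reuptake inhibitor, has lasting effects. RNA came from the whole brain of male C57BL/6N mice, 5 mice in each of 6 groups, 30 libraries in all. At postnatal day (P) 10 there were wild-type mice (P10-WT) and mice heterozygous for an Arid1b allele truncated in exon 5 (P10-HT), with no drug or saccharin named for them. At P120 both genotypes had been nursed from P3 to P21 by dams drinking 0.2% saccharin water, either alone (WT-Veh, HT-Veh) or with fluoxetine at 0.1 mg/ml (WT-Flx, HT-Flx). The heterozygous mice carry 1 engineered germline allele in every cell, so no effect can be assigned to a cell type or region, and the pups' own dose of fluoxetine, taken with the milk, is unknown.

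Dopamine is made from tyrosine, with tyrosine hydroxylase (Th) as the rate-limiting step, mostly in midbrain neurons that project to the striatum, where the transporter encoded by Slc6a3 takes it back up. The projection neurons of the striatum fall largely into a direct-pathway type, which carries the D1 receptor (Drd1), and an indirect-pathway type, which carries the D2 receptor (Drd2) and an adenosine receptor (Adora2a). D1 and D5 receptors (Drd1, Drd5) raise cyclic AMP, D2, D3 and D4 receptors (Drd2, Drd3, Drd4) lower it, and DARPP-32 (Ppp1r1b), present in both types of neuron, relays the signal by inhibiting protein phosphatase 1. In a whole-brain library, fewer cells of a type and less RNA per cell cannot be told apart.

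Values are gene counts that the authors divided by library size factors, called normalized counts below. They carry no record of sequencing depth, so no counting error can be given. Fold changes are differences of log2(value + 1) fitted with limma across all genes with a mean of at least 10 in the libraries compared, and called at an adjusted p (Benjamini-Hochberg over all genes tested) under 0.05. For single genes an exact two-sided permutation test is given too, which with 5 mice against 5 cannot go below 0.00794.

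Some libraries stood apart before any comparison. Arid1b itself was at 3164 to 3309 in P10-WT and 2162 to 2334 in P10-HT, and at 2961 to 3392 in WT-Flx and 2164 to 2616 in HT-Flx, but the library labelled HT-Veh replicate 2 held 3361, the level of wild types, and that labelled WT-Veh replicate 2 held 2320, the level of heterozygotes. The study's results table for HT-Veh against WT-Veh leaves both out, and here that comparison used replicates 1, 3, 4 and 5, and the other comparisons with vehicle mice were run with and without them. In 4 libraries (WT-Flx replicates 2 and 5, WT-Veh replicates 1 and 2) the summed level of 4 cerebellar markers (Gabra6, Cbln1, Cbln3 and Pcp2) lay between 1060.1 and 6302, against a median of 14346 at P120, and summed serotonergic markers were also low there (106 to 218, against 337 to 1042 in the other P120 libraries). The P120 libraries further differed in base composition. The deviation of a library from the mean of its age correlated across 17945 genes with the GC content of the transcript at r = 0.40 to 0.66 in HT-Flx, -0.60 to -0.44 in WT-Flx, and -0.56 to 0.52 in the vehicle groups, whereas at P10 r lay between -0.26 and 0.11. Drd1 has the lowest GC content of the 9 genes (46.0%, against a median of 49.9% over all genes) and Ppp1r1b the highest (61.0%). As to the labelled tissue, markers of cerebral cortex (summed 34160.4 to 100742), thalamus (8361 to 13016), cerebellum and striatum were present in all 30 libraries. Where a call among the 9 genes changed with these library properties, its values are given with and without them.

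The sequences just upstream of 4 genes are shown, because Th and Slc6a3 varied together from mouse to mouse and Drd1 and Drd2 mark the direct- and indirect-pathway neurons. They are the 250 bases before the start of the gene in RefSeq (GRCm38.p6), 5′ to 3′ on the gene's own strand, with capitals marking a cyclic AMP response element (CRE, TGACGTCA), a GC box (GGGCGG) or TATAAA on either strand. Of 32851 such windows over all genes, 1.55% hold the CRE, 32.7% a GC box and 12.4% TATAAA.
Th, chr7:142899996-142900245, minus strand: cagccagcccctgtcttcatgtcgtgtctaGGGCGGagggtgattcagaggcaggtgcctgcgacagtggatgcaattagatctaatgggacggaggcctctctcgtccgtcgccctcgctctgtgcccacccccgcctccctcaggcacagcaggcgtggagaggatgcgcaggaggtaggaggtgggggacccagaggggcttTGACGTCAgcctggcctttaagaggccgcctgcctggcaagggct
Slc6a3, chr13:73536497-73536746, plus strand: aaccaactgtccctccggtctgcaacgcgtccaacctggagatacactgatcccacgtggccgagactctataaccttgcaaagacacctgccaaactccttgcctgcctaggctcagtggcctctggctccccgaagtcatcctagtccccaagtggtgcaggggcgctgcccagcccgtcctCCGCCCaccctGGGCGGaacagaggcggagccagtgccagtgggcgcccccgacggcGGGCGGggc
Drd1, inner of 2 listed starts, chr13:54054781-54055030, minus strand: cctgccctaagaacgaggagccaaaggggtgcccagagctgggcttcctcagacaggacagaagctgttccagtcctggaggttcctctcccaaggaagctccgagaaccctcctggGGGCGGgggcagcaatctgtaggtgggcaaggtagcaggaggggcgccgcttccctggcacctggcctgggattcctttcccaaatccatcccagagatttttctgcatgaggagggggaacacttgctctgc
Drd2, chr9:49340153-49340402, plus strand: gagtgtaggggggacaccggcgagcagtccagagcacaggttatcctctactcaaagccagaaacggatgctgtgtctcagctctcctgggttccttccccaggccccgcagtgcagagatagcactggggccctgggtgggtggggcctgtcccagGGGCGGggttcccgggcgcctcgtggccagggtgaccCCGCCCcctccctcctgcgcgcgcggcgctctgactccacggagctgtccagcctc

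The Th window held 1 CRE, beginning 45 bases before the start, and 1 GC box. Slc6a3 had 3 GC boxes, the inner Drd1 window 1 and Drd2 had 2, and none of the 4 held TATAAA. The window at the outer Drd1 start and that of Drd3 held none of the 3 motifs, Drd4 had 3 GC boxes and Drd5 had 2. Windows matched 7 of the 9 genes, the exceptions being Ppp1r1b and Adora2a. These are matches of letters only. In the GENCODE annotation the Drd1 window lies in an intron, the Th window lies within the span of longer transcripts, and the Slc6a3 and Drd2 windows lie upstream of the gene.

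The genes lie on 7 chromosomes of GRCm38 (GENCODE M21), Th (chr7:142892752-142931128) and Drd4 (chr7:141292006-141296464) sharing chromosome 7 and Drd1 (chr13:54051183-54055705) and Slc6a3 (chr13:73536747-73578672) sharing chromosome 13. Drd2 is at chr9:49340627-49408177, Drd3 at chr16:43754026-43822932, Drd5 at chr5:38319367-38322518, Ppp1r1b at chr11:98348404-98357796 and Adora2a at chr10:75316877-75334784. A counted value covers all exons of a gene. Annotated genes overlap Drd3 (Gm25996, same strand), Drd5 (Gm26560, opposite strand) and Ppp1r1b (1700003D09Rik, opposite strand), and the counting is not stated to use strand, so reads of these pairs may not be fully separated.

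Levels were compared between genes only after division by the length of the longest coding transcript. In P10-WT, Ppp1r1b was the most abundant at 2002 ± 168 normalized counts per kb (mean ± SD, n = 5), followed by Adora2a at 339 ± 16.2, Th at 217 ± 19.2 and Drd2 at 198 ± 16.1. Drd1 stood at 141 ± 9.79, Slc6a3 at 118 ± 7.9 and Drd5 at 31.8 ± 3.45 per kb. Drd3 (7.62 ± 1.98) and Drd4 (3.79 ± 0.916) were lowest. Among neighbours in this order the library ranges overlapped only for Th and Drd2 and for Drd3 and Drd4. In WT-Veh at P120 the order was Ppp1r1b, Adora2a, Drd2, Th, Drd1, Slc6a3, Drd5, Drd3 and Drd4, so Drd2 had moved above Th. There each gene from Adora2a down to Drd1 overlapped with its next neighbour, as did Drd3 with Drd4, while Ppp1r1b stood clear above and Drd5 stood clear of Slc6a3 and Drd3. In HT-Flx, Slc6a3 stood above Drd1 (167 ± 45.5 and 143 ± 47.5 per kb, ranges overlapping), while in WT-Flx Drd1 stood above Th (289.8 ± 115 and 233 ± 41.8, ranges overlapping). Division by the mean length of the coding transcripts instead left the order within each of the 6 groups as it was.

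**Figure D1:**
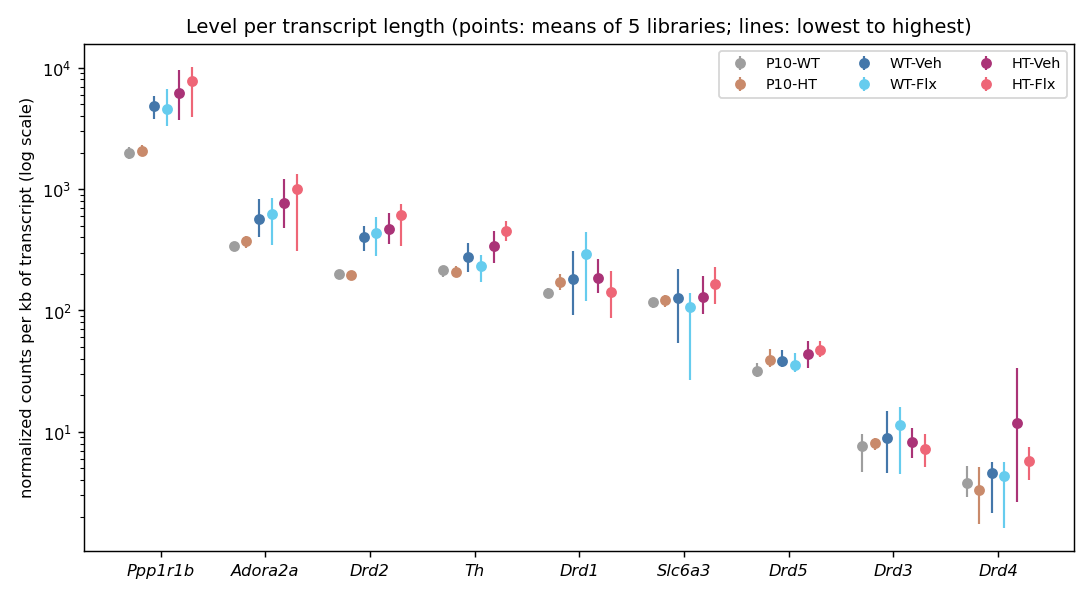
Normalized counts per kb of the longest coding transcript (log scale) for each gene, with points at the mean of 5 libraries of each of the 6 groups and lines from the lowest to the highest library. Ppp1r1b stood at the top in every group (P10-WT 2002 per kb) and Drd3 and Drd4 at the bottom, and the means of Drd2, Ppp1r1b and Adora2a lay higher in the P120 than in the P10 groups.

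The 3 genes Drd2, Ppp1r1b and Adora2a of striatal neurons rose between P10 and P120 in both genotypes. Drd2 was at 554, 545, 479, 465 and 484 in the 5 P10-WT libraries and at 1076, 1262, 1096, 795 and 937 in WT-Veh. In heterozygotes it was at 484, 504, 542, 492 and 470.5 at P10 and at 1604, 1151, 1458, 902 and 912 in HT-Veh. No P120 library reached down to the P10 levels in either genotype. The increase was 2.02-fold in wild types (log2 1.02, SE 0.11, limma adjusted p = 6.88e-06) and 2.35-fold in heterozygotes (log2 1.23, SE 0.16, limma adjusted p = 4.44e-05). The exact permutation p was 0.00794, the smallest possible, in each genotype.

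Ppp1r1b, encoding DARPP-32, rose the most. Its 5 P10-WT libraries held 4013, 4165, 3858, 3545 and 4447, and the WT-Veh libraries 10170.1, 11754, 10846, 7604 and 7582. The P10-HT libraries held 4603, 3827, 4439.6, 3759.9 and 3864, and HT-Veh 14138, 12714, 19133, 8801 and 7471. The ages did not overlap, but HT-Veh was spread widely, with replicates 4 and 5 well below replicates 1, 2 and 3. The rise was 2.36-fold in wild types (log2 1.24, SE 0.12, limma adjusted p = 2.21e-06) and 2.88-fold in heterozygotes (log2 1.53, SE 0.21, limma adjusted p = 7.32e-05).

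Adora2a, the adenosine receptor of indirect-pathway neurons, was at 879.9, 889, 812, 929 and 885 in P10-WT and 1590.1, 2136, 1435, 1043 and 1188 in WT-Veh. It was at 1073, 850.4, 1054, 857 and 1035 in P10-HT and 2279, 1844, 3153, 1231 and 1470.0 in HT-Veh. Again the ages did not overlap, the lowest WT-Veh library lying close above the highest at P10. Its rise was 1.63-fold (log2 0.71, SE 0.15, limma adjusted p = 0.00146) in wild types and 1.95-fold (log2 0.96, SE 0.21, limma adjusted p = 0.00224) in heterozygotes.

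In all, 3 of the 9 genes were called with age in wild types, all higher, where 58.3% of 17927 genes were called and 28.9% were called higher. In heterozygotes 4 were called, all higher, against 51.1% of 17989 genes called and 25.8% called higher, so much of the transcriptome differed with age and the count of called members is no more than this background. The vehicle groups also enter the genotype and fluoxetine comparisons. The groups did not overlap, with P120 higher, for 22.6% of genes tested in wild types and 20.4% in heterozygotes. P120 vehicle mice also differ from P10 mice in having been given saccharin through the dams, and the P120 libraries varied more in their relation to GC content. With GC content and transcript length corrected for, the rises were smaller but still called, at log2 0.83, 0.96 and 0.49 for Drd2, Ppp1r1b and Adora2a in wild types and 0.96, 1.06 and 0.56 in heterozygotes. Without the vehicle libraries numbered 2, the rises of Drd2, Ppp1r1b and Adora2a were 0.94, 1.16 and 0.56 in wild types and 1.24, 1.5 and 0.97 in heterozygotes, all called. None of the 9 genes was called as differing between genotypes in its change with age in a test of the interaction (0 of 17978 genes called by limma, 612 at an unadjusted p under 0.05, none of them a member).

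**Figure D2:**
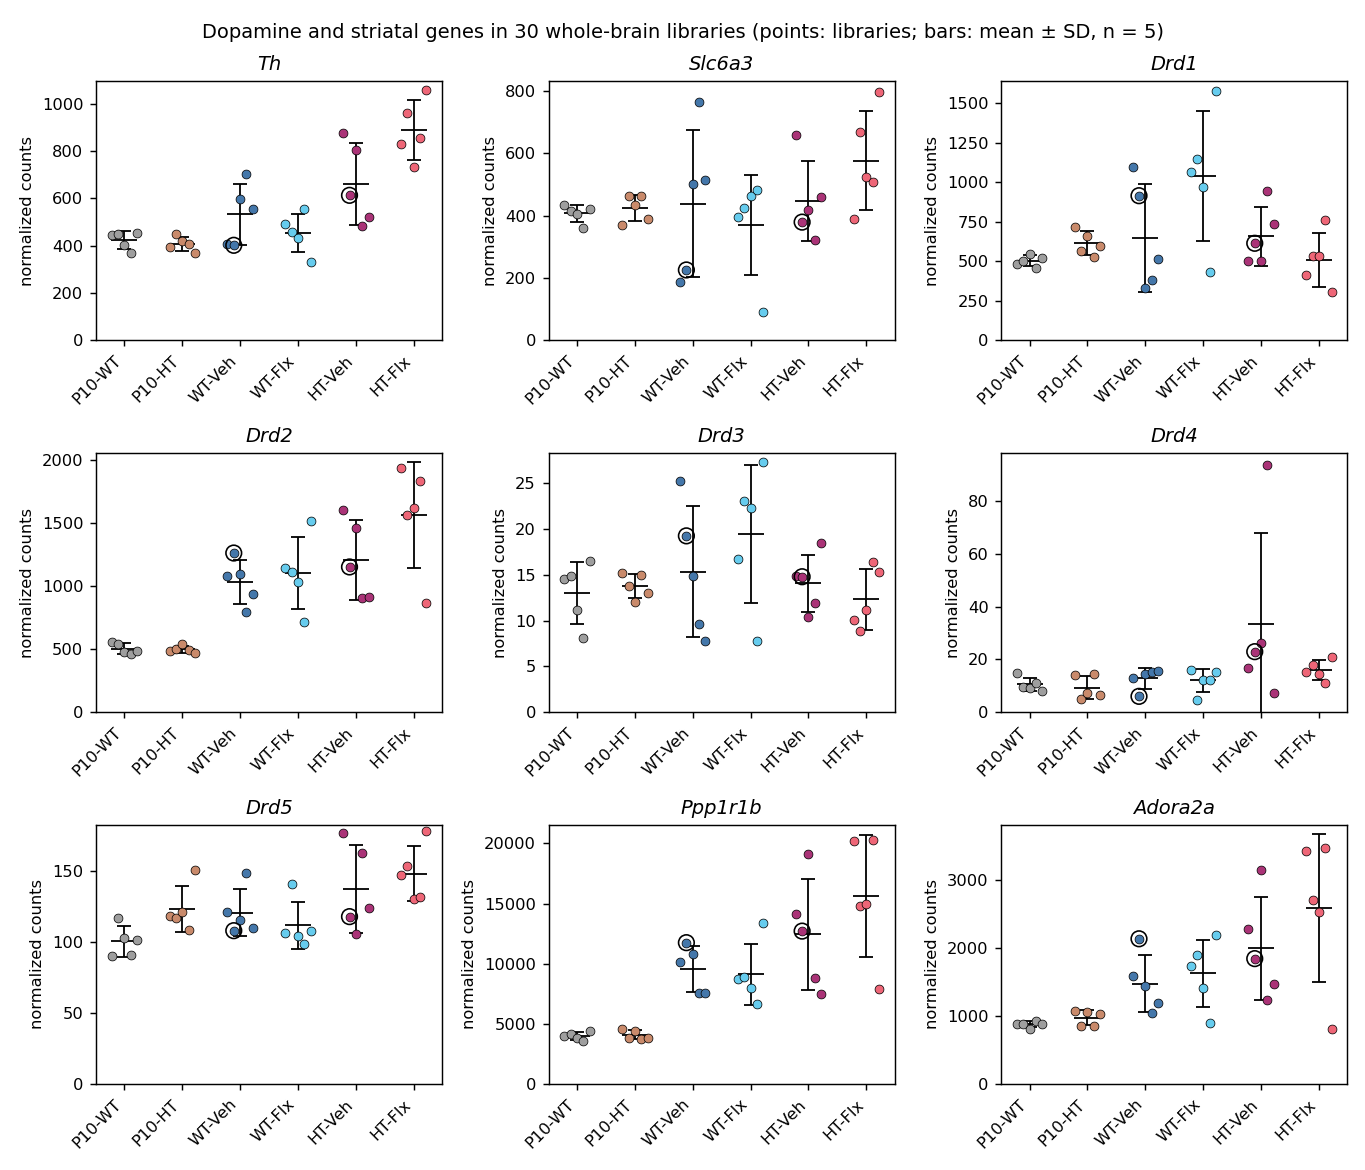
Normalized counts of each gene in the 30 libraries, with points for libraries (in order of replicate number within a group) and bars for the mean and SD of 5. Circles mark replicate 2 of WT-Veh and of HT-Veh, whose Arid1b levels go against their labels, and the bar of Drd4 in HT-Veh is cut at 0. The Drd2 and Ppp1r1b libraries of P120 all lie above those of P10, the mean of Th is highest in HT-Flx (733 to 1059) and Drd4 is at 93.5 in a single HT-Veh library.

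Th rose with age in heterozygotes. It was at 394, 451, 419.5, 406 and 369.6 in P10-HT and 876, 613, 804, 483 and 520.3 in HT-Veh, with no overlap (log2 0.65, SE 0.16, limma adjusted p = 0.00491). In wild types it was at 445, 448, 404, 367 and 455 at P10 and 408, 402, 599, 703 and 554 in WT-Veh, where replicates 1 and 2 lay within the P10 range and the others above it (log2 0.30, SE 0.15, limma adjusted p = 0.0962). Those 2 libraries are the WT-Veh libraries low in cerebellar markers. Leaving out either gave a called rise (log2 0.39 or 0.39, limma adjusted p = 0.0312 or 0.0318), and leaving out both gave log2 0.54 (limma adjusted p = 0.00109), with Slc6a3 then called as well. Correction for GC content and length took the change in heterozygotes to log2 0.32, still called, and without HT-Veh replicate 2 it was 0.67. The difference between the genotypes in this change was log2 0.35 (95% interval -0.12 to 0.83, limma adjusted p = 0.877). Markers of the olfactory bulb, a region with its own Th-positive neurons, summed to 2101 to 2969 at P10 and 488 to 1485 at P120, with 3 of 4 lower in each genotype, and their part in the Th values was not tested.

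The other members did not pass the test with age. Slc6a3 was at 362 to 433 in P10-WT and 188 to 763 in WT-Veh, a far wider spread at P120 (log2 -0.08, 95% interval -0.75 to 0.59). Drd1 was at 482, 505, 546, 456 and 523 in P10-WT and 1097, 915, 329, 383 and 513 in WT-Veh, the P120 libraries falling on both sides of the P10 range (log2 0.21, 95% interval -0.40 to 0.81). Without WT-Veh replicate 1 its difference was -0.02 and without replicates 1 and 2 it was -0.32 (limma adjusted p = 0.0539), so these data give no direction for Drd1 in wild types. In heterozygotes Drd1 was at 527 to 718 at P10 and 500.3 to 942 in HT-Veh (log2 0.07, 95% interval -0.30 to 0.44), a difference that was called after GC and length correction (log2 0.31, limma adjusted p = 0.0225) and was -0.07 without HT-Veh replicate 4. The D3 receptor gene Drd3 was low in all libraries (7.77 to 27.3), and the D5 receptor gene Drd5 ranged from 90.1 to 178, with log2 0.26 with age in wild types (95% interval -0.02 to 0.53).

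Drd4 was low, at 16.8, 23.0, 26.1, 93.5 and 7.34 in HT-Veh and 4.85 to 14.4 in P10-HT. HT-Veh replicate 4, at 93.5, stood above the 26.1 of the next library of any group. The change with age in heterozygotes missed the threshold (log2 1.36, 95% interval 0.19 to 2.52, limma adjusted p = 0.050), and without that library it was log2 0.87 (limma adjusted p = 0.101).

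Related genes were read as lists by cell type and function, in wild types first and heterozygotes second, and chosen with earlier results known. Over all genes 28.9% were called higher and 29.4% lower with age in wild types, and 25.8% and 25.3% in heterozygotes, the shares against which each count is set. Of 6 measured genes of indirect-pathway neurons, 4 rose in wild types and 4 in heterozygotes and none fell, with median log2 fold changes of 0.62 and 0.91 against -0.01 and -0.02 over all genes. Besides Drd2 and Adora2a, Penk, which encodes the enkephalin precursor, rose (log2 1.25 and 1.43, limma adjusted p = 2.83e-07 and 5.08e-06). Of 7 genes of direct-pathway neurons, 1 rose and 1 fell in wild types and 1 rose and 3 fell in heterozygotes (medians -0.01 and 0.07). The riser was the muscarinic M4 receptor gene Chrm4 (log2 0.67 and 1.14), and Sfxn1 fell in both genotypes (log2 -0.62 and -0.91), with Isl1 and Eya1, developmental transcription regulators, falling in heterozygotes (log2 -0.69 and -0.71). Among 19 genes shared by both types, 7 rose and 4 fell in wild types and 6 rose and 7 fell in heterozygotes. The risers were led by Rasd2 (log2 1.39 and 1.59), Ppp1r1b and the phosphodiesterase gene Pde1b (log2 1.01 and 1.19), and those that fell by Ebf1 (log2 -0.77 and -0.99), Gnal, the G protein subunit that couples D1 receptors to cyclic AMP (log2 -0.62 and -0.72), and Strn (log2 -0.41 and -0.60). In sum 11 and 13 of the 19 were called, against 58.3% and 51.1% of all genes. After GC and length correction the indirect-pathway counts were 5 higher and 1 lower in wild types and 4 and 1 in heterozygotes, the direct-pathway counts 1 and 1, and 2 and 2, and the shared counts 6 and 3, and 7 and 6. Without the WT-Veh libraries low in cerebellar markers, 6 shared genes were higher and 12 lower in wild types. Over all genes, 8547 to 10788 were called in wild types under the alternative settings, against 10451 with all libraries uncorrected. In heterozygotes these were 7361 to 10665, against 9184. The shares above belong to the uncorrected fits of all libraries. Shares for corrected fits or fits with libraries left out are not printed here, so those counts are description only.

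Genes of dopamine handling were read in the same way. Of 13 genes of synthesis, storage and breakdown, 4 rose and 2 fell in wild types and 5 rose and 2 fell in heterozygotes (medians 0.03 and 0.23), against the 58.3% and 51.1% of all genes called. Qdpr and Spr, enzymes that recycle and make the cofactor of tyrosine hydroxylase, rose (Qdpr by log2 1.69 and 2.08, Spr by 0.73 and 1.02). The 2 monoamine oxidase genes moved in opposite directions, with Maob rising (log2 1.08 and 0.91) and Maoa falling (log2 -0.81 and -0.96). Ddc, the enzyme after Th in the pathway, was not called (log2 0.15 and 0.18), and the vesicular transporter gene Slc18a2 fell in heterozygotes (log2 -0.56, limma adjusted p = 0.0166) and was at log2 -0.44 in wild types, not called. Of 18 tested genes of midbrain dopamine neuron identity, 1 rose and 4 fell in wild types and 4 rose and 7 fell in heterozygotes, led by a rise of Aldh1a1 (log2 1.52 and 1.80) and falls of Ntsr1 (log2 -1.08 and -0.83) and Sox6 (log2 -0.88 and -0.92). Without the WT-Veh libraries low in cerebellar markers, 7 of 19 tested midbrain genes were higher and 3 lower in wild types. The 58.3% does not belong to that fit, whose own share is not printed here, so this count is description only. Of 31 genes of receptor signalling, 13 rose and 8 fell in wild types and 8 rose and 9 fell in heterozygotes (medians 0.05 and 0.11). The risers were led, after Ppp1r1b, by Ncs1 (log2 1.04 and 1.27) and the receptor kinase gene Grk2 (log2 0.79 and 0.94). Prkar2b, a regulatory subunit of protein kinase A (log2 -1.31 and -1.40), and the inhibitory G protein gene Gnai3 (log2 -1.02 and -1.14) fell the most.

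Markers of other regions and cells were read beside these, against the same 58.3% and 51.1% of all genes called. Of 4 tested hypothalamic genes 4 rose in each genotype, as did 4 of 4 choroid plexus genes, and cerebellar genes rose in 1 of 4 and 3 of 4. Cortical genes rose in 1 and fell in 2 of 6, and thalamic genes rose in 1 and fell in 2 of 4, in each genotype. Of 3 pituitary genes 1 rose in each genotype, 1 of 3 noradrenergic genes fell in wild types and 0 in heterozygotes, and 0 of 3 serotonergic genes were called in either. Their part in the values of the 9 genes was not tested.

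At P10 the comparison of P10-HT with P10-WT asked whether the genotype alters these genes early. None of the 8 members tested was called, where 4 of 17896 genes (0.0224%) were, Arid1b among them (log2 -0.55). Drd1 was at 718, 564, 659, 527 and 599 in P10-HT and 482, 505, 546, 456 and 523 in P10-WT. All but a single heterozygote exceeded every wild type, and the difference was 1.22-fold (log2 0.28, SE 0.08, exact permutation p = 0.0159) with a limma adjusted p of 0.30. Drd5, the other receptor that raises cyclic AMP, was at 118, 117.0, 121, 108 and 150.4 against 90.1, 116.5, 103, 90.4 and 101. Here too all but a single heterozygote exceeded every wild type (log2 0.29, SE 0.11, exact permutation p = 0.0159, limma adjusted p = 0.354). At an unadjusted p under 0.05 stood 12.6% of all genes, and these were the only members among them. Adora2a differed by log2 0.14 (95% interval -0.02 to 0.30), and Th, Slc6a3, Drd2 and Ppp1r1b by -0.05 to 0.06, with 95% intervals that stayed within -0.22 and 0.23. Drd3 was poorly measured (95% interval -0.40 to 0.62) and Drd4, whose mean was under 10, was not tested (exact permutation p = 0.437). Removal of any 1 library left Drd1 between log2 0.22 and 0.33 and uncalled. None of the genes on the lists of dopamine synthesis, midbrain identity, striatal neurons or receptor signalling was called here, in the vehicle comparison or in either fluoxetine comparison that follows.

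At P120, HT-Veh was compared with WT-Veh in 4 mice of each, where the exact test cannot go below 0.0286. None of the 9 genes was called, nor was any of 17784 genes (0%), with 229 at an unadjusted p under 0.05, none of them a member. All 9 estimates were above 0 (0.04 to 0.68 in log2), where the median over all genes was 0.0067. Some members varied together across mice, so these are not 9 independent signs. Adora2a was at 2279, 3153, 1231 and 1470.0 in HT-Veh against 1590.1, 1435, 1043 and 1188 in WT-Veh, overlapping (log2 0.55, 95% interval -0.06 to 1.16). Drd2 differed by log2 0.28 (95% interval -0.20 to 0.76) and Ppp1r1b by 0.37 (95% interval -0.25 to 0.99). Th (0.22, 95% interval -0.30 to 0.75), Slc6a3 (0.04, -0.79 to 0.87) and Drd1 (0.32, -0.45 to 1.1) had wide intervals as well. With all 5 mice of each group no member was called either.

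The effect of early fluoxetine was asked within each genotype. In heterozygotes none of the 9 genes was called, nor any of 17676 genes (0%), though 4082 stood at an unadjusted p under 0.05 and Th among them. Th was at 830.3, 961, 733, 856 and 1059 in HT-Flx against 876, 613, 804, 483 and 520.3 in HT-Veh, where replicates 1 and 3 reached the HT-Flx range (log2 0.46, SE 0.18, exact permutation p = 0.0635, limma adjusted p = 0.215). The relation to GC content was r = 0.52 and 0.27 in these 2 libraries, 0.25 in replicate 2, whose Th was 613, and -0.56 and -0.53 in replicates 4 and 5. The difference was log2 0.24 after GC and length correction and 0.44 without HT-Veh replicate 2. Drd1 was at 413, 535, 533, 763 and 308 in HT-Flx against 500.3, 614, 503, 942 and 733 in HT-Veh, overlapping (log2 -0.39, 95% interval -0.91 to 0.13). The other 7 genes lay between log2 -0.56 (Drd4) and 0.36.

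In wild types none of the 9 genes was called either, nor any of 17865 genes (0%), with 4504 at an unadjusted p under 0.05 and no member among them. Drd1 was at 1064, 1146, 967, 430.0 and 1576 in WT-Flx and 1097, 915, 329, 383 and 513 in WT-Veh, a wide overlap (log2 0.72, 95% interval -0.09 to 1.54, limma adjusted p = 0.24). Without WT-Veh replicate 2 it was log2 0.89, not called. Slc6a3 was at 394, 423, 462, 483 and 91.8 in WT-Flx, replicate 5 standing far below the rest (log2 -0.26, 95% interval -1.30 to 0.79). The remaining 7 genes lay between log2 -0.22 (Th) and 0.33 (Drd3).

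Fluoxetine-treated heterozygotes and fluoxetine-treated wild types differed in 4 of the 9 genes, 3 higher and 1 lower, where 63.7% of 17799 genes were called, 33.1% higher and 30.5% lower. The count of called members is thus no more than the background. These groups enter the fluoxetine comparisons above as well, so the results are not independent. Th was at 830.3, 961, 733, 856 and 1059 in HT-Flx against 490.3, 459.7, 433, 554 and 332 in WT-Flx. Every HT-Flx library lay above every WT-Flx library, as for 25.6% of genes, and the difference was 1.97-fold (log2 0.98, SE 0.14, limma adjusted p = 9.64e-05, exact permutation p = 0.00794). It was the only member still called after GC and length correction (log2 0.57, limma adjusted p = 0.00873), when 6388 genes were called, and it was log2 0.85 without WT-Flx replicates 2 and 5.

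Drd1 was lower in HT-Flx (413, 535, 533, 763 and 308) than in WT-Flx (1064, 1146, 967, 430.0 and 1576). All but WT-Flx replicate 4 exceeded the HT-Flx libraries, and the fall was log2 -0.97 (SE 0.31, limma adjusted p = 0.0159, exact permutation p = 0.0317). It was not called after GC and length correction (log2 -0.45, limma adjusted p = 0.272), nor without WT-Flx replicates 2 and 5 (log2 -0.64, limma adjusted p = 0.114). Ppp1r1b was higher in HT-Flx (20181, 14837, 14940.1, 20272 and 7890.4) than in WT-Flx (8751, 8863, 7968, 6674 and 13416), HT-Flx replicate 5 lying within the WT-Flx range (log2 0.74, SE 0.25, limma adjusted p = 0.0189). The difference was log2 0.07 after GC and length correction and was not called without HT-Flx replicate 1 (limma adjusted p = 0.0512). Drd5 was at 147, 153, 130.3, 131 and 178 in HT-Flx against 106, 141, 104, 98.6 and 108 in WT-Flx, overlapping through WT-Flx replicate 2 (log2 0.41, SE 0.14, limma adjusted p = 0.0199), and its difference was 0.07 after the correction. Without WT-Flx replicates 2 and 5, Ppp1r1b and Drd5 differed by log2 0.94 and 0.51.

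Drd2 and Adora2a were not called between the fluoxetine groups. Drd2 was at 1933, 1565, 1615, 1829.5 and 863 in HT-Flx against 1139, 1112, 1029, 717 and 1514 in WT-Flx (log2 0.49, limma adjusted p = 0.0751). Adora2a was at 3423, 2703, 2535, 3477 and 804 in HT-Flx against 1733, 1898, 1411, 900.4 and 2188 in WT-Flx (log2 0.57, limma adjusted p = 0.19). In both genes HT-Flx replicate 5 stood below the other 4 HT-Flx libraries, and it held the most cerebellar marker RNA of all libraries (30413, against 13299 to 16131 in the rest of its group). Without it both were called (log2 0.69 and 0.95, limma adjusted p = 0.00488 and 0.00309), and Drd2 was called too without WT-Flx replicate 5 (log2 0.61). After GC and length correction of all libraries they stood at 0.03 and -0.17. Without WT-Flx replicates 2 and 5, Drd2 and Adora2a differed by log2 0.67 and 0.83. Slc6a3 differed by log2 0.80 (95% interval -0.06 to 1.66) and was 0.33 without WT-Flx replicates 2 and 5. Drd3 and Drd4 differed by -0.54 and 0.45, neither called.

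**Figure D3:**
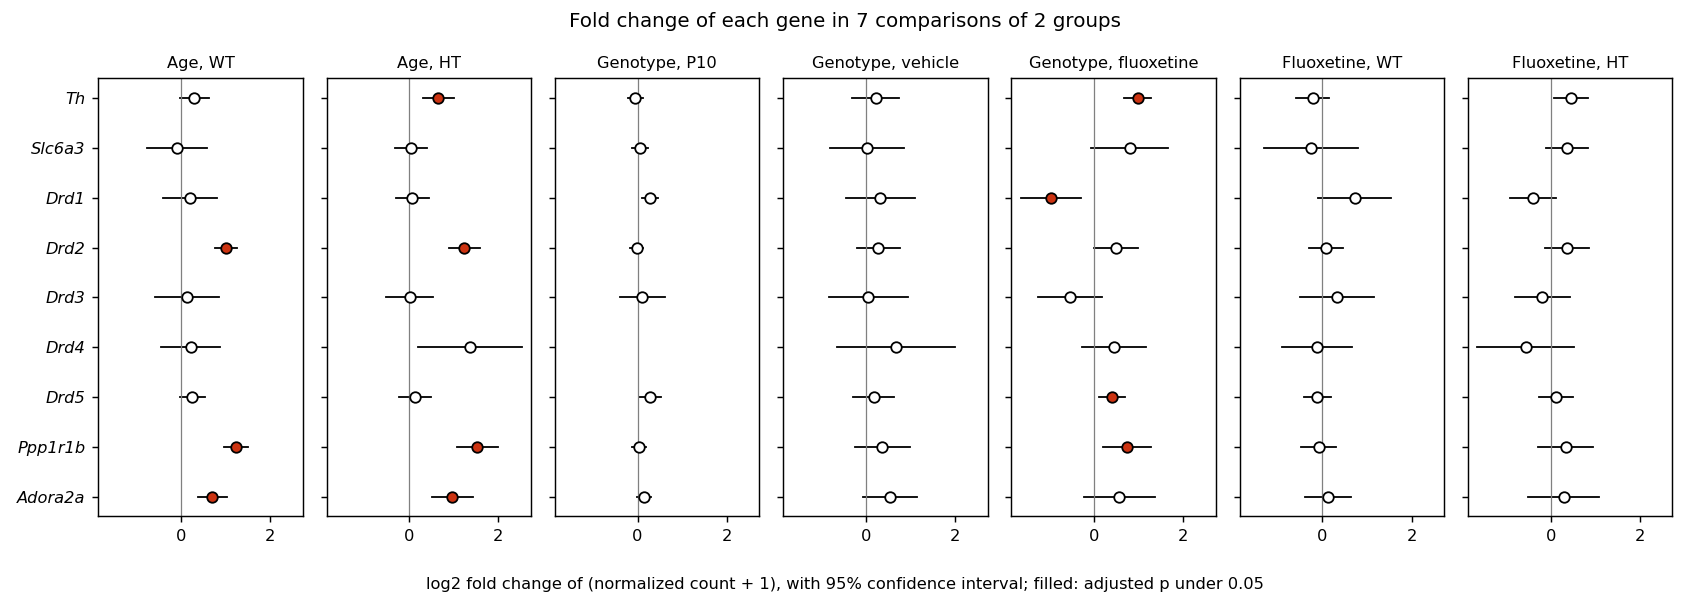
Log2 fold changes with 95% confidence intervals from limma for each gene in 7 comparisons of 2 groups, filled where the adjusted p was under 0.05. Age panels compare P120 vehicle with P10 mice, genotype panels HT with WT, and fluoxetine panels Flx with Veh, and Drd4 was not tested at P10. Called changes with age were all increases (Drd2 1.02 and 1.23), and Th (0.98) and Drd1 (-0.97) lie on opposite sides in the comparison of fluoxetine groups.

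Whether the genotypes responded differently to fluoxetine was tested as an interaction over the 20 P120 libraries. Th had an interaction of log2 0.67 (SE 0.26, limma adjusted p = 0.0558) and Drd1 of -1.11 (SE 0.48, limma adjusted p = 0.0796), and none of the 9 genes was called, where 27.3% of 17796 genes were. Without the vehicle libraries numbered 2 the values were 0.75 and -1.29, neither called. That background itself fell to 0 genes after GC and length correction, without the vehicle libraries numbered 2, and without the 4 libraries low in cerebellar markers. Leaving out single libraries called up to 2 members, Th without HT-Veh replicate 1 or 3, Drd1 without WT-Flx replicate 4, and both without WT-Veh replicate 1.

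The same lists were read between the fluoxetine groups, where 33.1% of all genes were called higher and 30.5% lower. Of 7 direct-pathway genes, 4 were lower in HT-Flx and none higher (median log2 -0.71, against 0.02 over all genes), led by Eya1 (-1.22), Drd1 and the tachykinin gene Tac1 (-0.77). Of 6 indirect-pathway genes, 1 was higher, Penk (0.59), and none lower (median 0.37). Of 19 shared genes, 3 were higher, Ppp1r1b, the adenylyl cyclase gene Adcy5 (0.53) and Rasgrp2 (0.41), and 6 lower, led by the retinoic acid receptor gene Rarb (-1.33), Arpp21 (-0.78) and the phosphodiesterase gene Pde10a (-0.76). Of 13 genes of dopamine synthesis and breakdown, 6 were higher, led by Dbh (1.65), which turns dopamine into noradrenaline, Th and Spr (0.83), and 3 lower, Maoa (-0.89), Pts (-0.50) and Maob (-0.49). Ddc (0.02) and Slc18a2 (-0.49) were not called. Of 18 tested midbrain identity genes, 5 were higher, led by En1 (1.33), Lmx1b (1.25) and Ret (1.01), and 1 lower, Nr4a2 (-0.65). Of 31 signalling genes, 15 were higher, led by Ncs1 (1.06), Akt1 (0.99) and Prkaca (0.97), and 7 lower, led by Gnai3 (-1.09), Ppp3ca (-0.74) and Gnal (-0.73). Of markers of other cells, 2 of 3 tested noradrenergic genes (median 1.56) and 2 of 3 serotonergic genes (median 1.33) were higher in HT-Flx, and summed noradrenergic markers were at 298 to 693 in HT-Flx and 29.1 to 448 in WT-Flx. Noradrenergic neurons also make Th, and their part in the Th difference was not tested. Summed cortical markers were at 48947 to 100742 in HT-Flx and 34596 to 46010.2 in WT-Flx, without overlap, with 2 of 6 called higher and 1 lower. Of 4 genes each, 1 cerebellar gene was higher, 2 thalamic genes were higher and 1 lower, 1 choroid plexus gene was higher and 1 lower, 1 pituitary gene was lower, and 0 olfactory bulb and 0 hypothalamic genes were called. Their part in these differences was not tested. After GC and length correction, 0 direct-pathway genes were higher and 2 lower, 0 indirect-pathway genes were called, 1 shared gene was higher and 5 lower, 4 synthesis genes were higher and 0 lower, 2 midbrain genes were higher and 0 lower, 11 signalling genes were higher and 4 lower, and 0 noradrenergic or serotonergic genes were called. Without WT-Flx replicates 2 and 5, direct-pathway genes had 2 higher (Chrm4 and Pdyn) and 2 lower (Eya1 and Sfxn1), indirect-pathway genes 2 higher and 1 lower, shared genes 5 higher and 6 lower, synthesis genes 4 higher and 4 lower, and noradrenergic genes 0. Over all genes, 5234 to 11786 were called under the alternative settings, against 11330 with all libraries uncorrected. The 33.1% and 30.5% belong to the latter. Shares for corrected fits or fits with libraries left out are not printed here, so those counts are description only.

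In the interaction, where 15.8% of all genes were called higher and 11.5% lower, direct-pathway genes had 1 of 7 lower (Tac1, -1.21), shared striatal genes 2 of 19 lower (Rarb and Gnal, -1.31 and -0.66), and indirect-pathway genes and the markers of other cells 0. Of 13 dopamine synthesis genes, 2 were higher, Spr (0.75) and Pcbd1 (0.63), and 3 lower, Maoa (-0.80), Pts (-0.57) and Maob (-0.47), while Ddc (-0.03) and Slc18a2 (-0.51) were not called. Of 18 midbrain genes, 2 were higher, Lmx1b (1.37) and Ntsr1 (0.56). Of 31 signalling genes, 8 were higher, led by Ncs1 (0.88), Akt1 (0.87) and Gnai2 (0.86), and 5 lower, led by Gnai3 (-0.94), Gnal and Ppp3ca (-0.64). All of these calls were lost (0 genes of any list) after GC and length correction, without the vehicle libraries numbered 2, and without the 4 libraries low in cerebellar markers. In the comparisons with no called list gene, Ddc, Slc18a2, Maoa and Maob stood at log2 0.02, 0.13, 0.07 and 0.15 at P10, -0.12, -0.13, -0.13 and -0.04 between the vehicle groups, -0.05, -0.35, -0.59 and -0.23 for fluoxetine in heterozygotes and -0.02, 0.16, 0.21 and 0.24 for fluoxetine in wild types.

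The ratio of Drd1 to Drd2 within a library, taken on the normalized counts, set direct- against indirect-pathway receptor RNA. It was 0.87 to 1.14 in P10-WT and 1.07 to 1.48 in P10-HT. At P120 it was 0.30 to 1.02 in WT-Veh, 0.312 to 1.04 in HT-Veh, 0.60 to 1.04 in WT-Flx and 0.214 to 0.417 in HT-Flx. Every HT-Flx library lay below every WT-Flx library. Between these groups 48.5% of 17799 single genes did not overlap either, and no such share was computed for ratios. The vehicle libraries spanned most of the range, from WT-Veh replicate 3 at 0.30 to HT-Veh replicate 4 at 1.04. Relations to GC content spanned r = -0.43 to 0.32 in WT-Veh and -0.56 to 0.52 in HT-Veh. Whether the ratio followed this relation from library to library was not tested. With the 30 libraries corrected for GC content and length, an alternative chosen after seeing the data, the ratio was 0.461 to 0.591 in HT-Flx, 0.50 to 0.919 in WT-Flx, 0.485 to 0.869 in HT-Veh and 0.355 to 0.952 in WT-Veh, and the fluoxetine groups then overlapped. The ratio of Th to Slc6a3 was 1.0 to 1.08 in P10-WT and 0.881 to 1.07 in P10-HT, and reached 3.62 in WT-Flx replicate 5 and 2.17 in WT-Veh replicate 1. Adora2a to Drd2 had group medians of 1.31 to 1.73 at P120, with HT-Flx replicate 5 lowest at 0.932. The ratio of Ppp1r1b to Drd1 was 7.06 to 8.5 in P10-WT, 6.41 to 7.13 in P10-HT, 9.27 to 33.0 in WT-Veh, 9.34 to 38.0 in HT-Veh, 7.73 to 15.5 in WT-Flx and 25.6 to 48.8 in HT-Flx, so that WT-Flx overlapped P10-WT and HT-Flx overlapped both vehicle groups. After the correction it was 10.0 to 19.3 in WT-Flx and 15.6 to 19.4 in HT-Flx.

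**Figure D4:**
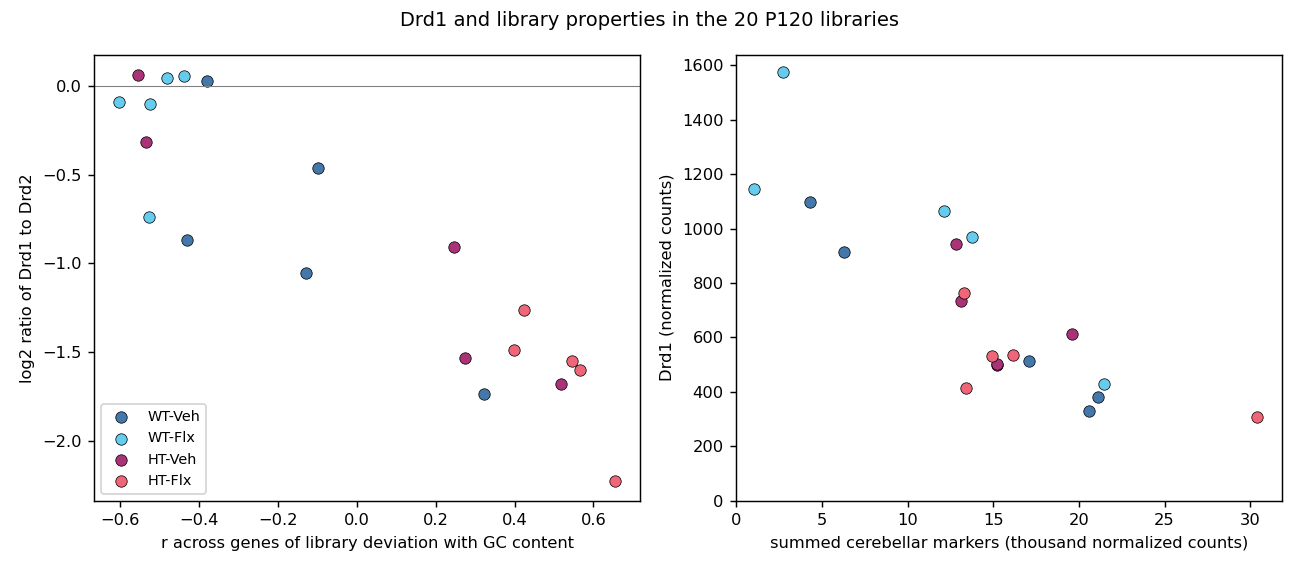
The 20 P120 libraries, coloured by group. Left, the log2 ratio of Drd1 to Drd2 against the correlation across genes of the library's deviation with GC content, and right, Drd1 in normalized counts against the summed level of 4 cerebellar markers. The 5 HT-Flx libraries lie at positive relations to GC content and low ratios (r = 0.40 to 0.66, ratio 0.214 to 0.417), and the 4 libraries low in cerebellar markers hold between 915 and 1576 of Drd1, a range that WT-Flx replicates 1 and 3 and HT-Veh replicate 4 also reach.

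Genes of the same kind of neuron varied together from mouse to mouse in part. After removal of group means, 36 pairs of members were correlated over the 30 libraries, with 100000 permutations within groups and Benjamini-Hochberg adjustment over the 36. Of these pairs, 5 passed by Pearson's r and 5 by Spearman's rho. Pairs of other genes were not tested in this way, so the count has no background share beside it. Drd2 and Adora2a gave r = 0.92 and rho = 0.82, with permutation p = 1e-05, the smallest the permutations can give, and 2e-05 (adjusted p = 0.00012 and 0.00024). Drd2 and Ppp1r1b gave r = 0.91 and rho = 0.88 (permutation p = 1e-05 for each, adjusted p = 0.00012 and 0.00018), and Ppp1r1b and Adora2a r = 0.91 and rho = 0.83 (the same p-values). Without the 2 libraries farthest from the median, these were r = 0.86, 0.89 and 0.87. They rested on the P120 libraries, where r was 0.95, 0.93 and 0.92. Within the 10 P10 libraries, whose spread was small, r was 0.01, 0.36 and 0.49.

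Th and Slc6a3, both of dopamine neurons, gave r = 0.79 and rho = 0.78 (permutation p = 4e-05 and 7e-05, adjusted p = 0.00036 and 0.00063), with r = 0.79 at P10, 0.80 at P120 and 0.77 without the 2 libraries farthest out. Th and Drd1 were opposed, r = -0.76 and rho = -0.69 (permutation p = 0.00017 and 0.00087, adjusted p = 0.00122 and 0.00626). This held at P120 (r = -0.80) and not at P10 (r = 0.03), and was -0.74 without the 2 farthest libraries and -0.60 without the 4 libraries low in cerebellar markers. Slc6a3 and Drd1 (r = -0.71) just missed the threshold (permutation p = 0.0084, adjusted p = 0.0504) and was -0.43 without those 4 libraries. Opposition was not limited to Drd1. With Drd2, Ppp1r1b and Adora2a, Slc6a3 gave r = -0.47, -0.49 and -0.46 and Th -0.15, -0.08 and -0.23, none called. After GC and length correction these pairs stood at -0.53, -0.66 and -0.57 for Slc6a3 and -0.46, -0.51 and -0.59 for Th. Drd1 went only loosely with Drd2 and Adora2a of indirect-pathway neurons (r = 0.42 and 0.47) and with Ppp1r1b of both types (0.33), none called (adjusted p = 0.187, 0.103 and 0.295). After correction of the libraries for GC content and length these were 0.74, 0.81 and 0.72. Libraries share their composition of brain regions and bases, which can move many genes at once, and the part of each was not tested.

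**Figure D5:**
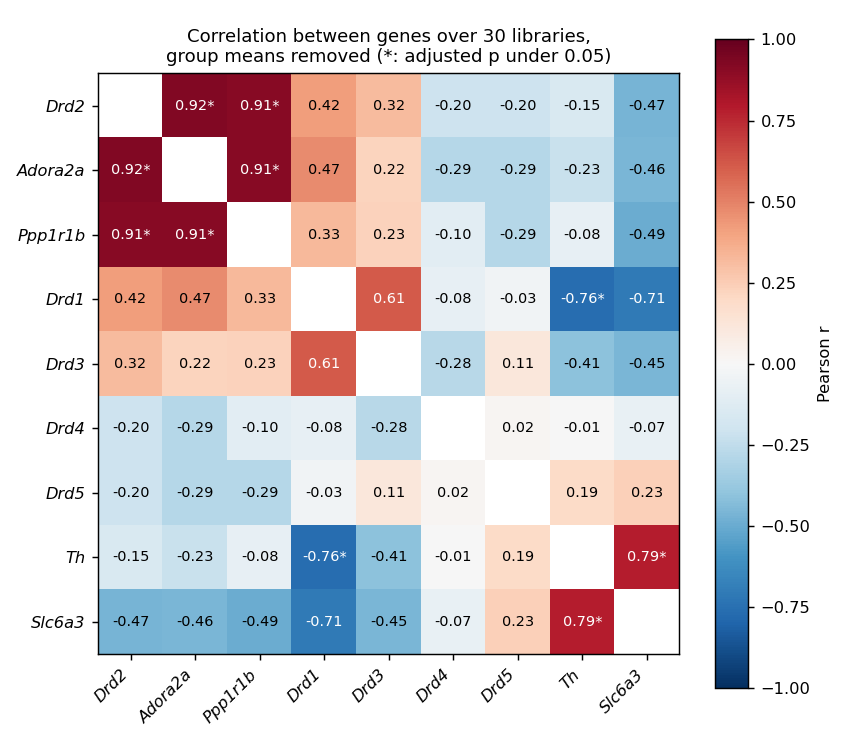
Pearson r between each pair of the 9 genes over 30 libraries after removal of group means, red for positive and blue for negative, with an asterisk where the adjusted permutation p was under 0.05. Drd2, Adora2a and Ppp1r1b form a block with r of 0.91 to 0.92, Th and Slc6a3 a pair at 0.79, and Th and Drd1 are opposed at -0.76.

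The genes most like each member over the 30 libraries, again after removal of group means, were sought among 17956 genes and are given as a description. For Drd2 they were Adcy5, Pde1b and Ngef (r = 0.96, 0.95 and 0.95), for Adora2a Gng7, Ankrd63 and Inf2 (0.96, 0.96 and 0.95) and for Ppp1r1b Inf2, Adcy5 and Ngef (0.95, 0.95 and 0.94). Drd1 was most like Pde10a, Dlgap2 and Tiam2 (0.94, 0.93 and 0.93), and shared none of these with the former 3. The search used values without GC and length correction. With that correction, Drd1 itself correlated with Drd2, Adora2a and Ppp1r1b at r = 0.74, 0.81 and 0.72. Th was most like Kank4, Shisa8 and Slc20a2 (0.86, 0.84 and 0.84), and Slc6a3 like Pou4f2, Chrna6 and Lhx4 (0.86, 0.85 and 0.85). The closest genes to Drd3 were 1700056N10Rik, Myo5b and Ptpn3 (0.78, 0.74 and 0.73). For Drd4 (Haspin, Cyp1b1 and Gm37639, 0.67 to 0.63) and Drd5 (Nupl2, Pam and Atp6v1b2, 0.69 to 0.64) no gene came as close.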

How the data were processed

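The deposited table holds, per the labels and the study's methods, poly-A RNA-seq of whole male brains: reads were quantified with Salmon 1.1.0 on GRCm38 with GC-bias correction, summarised to genes, and divided by the authors' DESeq2 1.30.1 size factors. The values are thus a deposited signal, normalized gene counts that are not whole numbers (0.212% of values above 0 lie within 0.001 of one), so no count model was used. The strand setting is not given in the sources used here. Ages and groups follow the labels, as the column headers use other codes for age. Summed normalized values were 31578614 to 41801037 per library, and no libraries were identical.

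Comparisons used limma 3.58.1 (R 4.3.3, empirical Bayes with an intensity trend) on log2(value + 1), checked on simulated data with known changes. The noise of that simulation was drawn separately for each gene and library. It therefore does not measure error rates where many genes of a library shift together, as in the P120 libraries. Mice are the replicates. Fluoxetine or vehicle reached the P120 mice through their dams, and the labels name no dam or litter. Mice of a group may thus be littermates, while the p-values treat them as independent. Gene length and GC content came from GENCODE M21 for 99.9% of genes, and the correction centred each library in 10 by 10 bins of both. Alternatives were pseudocounts 5 and 0.1, no filter or a minimum mean of 100, median-of-ratios rescaling, the replicate block, no trend, all groups in one fit, GC and length correction, and libraries left out. No value was taken from a table of the authors' own comparisons, but the choice of libraries for HT-Veh against WT-Veh followed theirs.

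The members and the lists were chosen with earlier results of these data known. Named beside the 9 genes were Arid1b, the up to 3 called genes of each list with the largest change in each direction, Ddc, Slc18a2, Maoa and Maob always, and the 3 genes most correlated with each member (marker lists are given as counts). Bdnf, Inhba, Nptx2 and Aanat were named after the Drd4 values were seen. A further gene that the rule names is not reported here. The lists were dopamine synthesis, storage and breakdown, midbrain dopamine neuron identity, dopamine receptors, direct-pathway, indirect-pathway and shared striatal genes, receptor signalling, and markers of noradrenergic and serotonergic neurons, pituitary, choroid plexus, olfactory bulb, cerebellum, cortex, hypothalamus and thalamus.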

Additional observations from a re-analysis of the deposited data

Results flagged for a closer look

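In 54 sets of values, 1 for each of the 9 genes in each of the 6 groups of 5 libraries, the gap between the highest or lowest library and its nearest neighbour was compared with the range of the group (Dixon's ratio, critical value 0.71). A library stood out in 3 of the 54, where chance alone would give about 1 in 20. Slc6a3 was at 91.8 in WT-Flx replicate 5, against 394 to 483 in the other WT-Flx libraries. The same library was among those low in cerebellar markers (summed level 2740.2). Drd4 was at 93.5 in HT-Veh replicate 4, against 7.34 to 26.1 in the rest of the group. This library also held the most Bdnf (955, against 315 to 599.8), Inhba (829, against 87.2 to 338) and Nptx2 (4924, against 1066 to 2096) of the 20 P120 libraries, genes that neuronal activity induces. The pineal gene Aanat was at 9.39 there, against 4.52 to 25.9. These 4 genes were chosen after the Drd4 value was seen, and their part in it was not tested. Drd5 was at 141 in WT-Flx replicate 2, against 98.6 to 108 in the other libraries of its group, and this library was the lowest of all in cerebellar markers (summed level 1060.1).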

How the results depend on the processing

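The counts of called genes among the 9 did not change under any alternative, single libraries left out included, at P10, in the vehicle comparison, in wild types on fluoxetine and for genotype by age. With all groups in one fit, Th was called between HT-Flx and HT-Veh (1 gene), 2 genes (Th and Drd1) were called in the genotype by fluoxetine interaction, and 6 between HT-Flx and WT-Flx. A minimum mean of 100 called 1 gene (Th) in that interaction. Leaving out single libraries called 0 to 2 there. GC and length correction, with or without the replicate block, left 1 called gene (Th) of 4 between HT-Flx and WT-Flx and turned Adora2a to log2 -0.17. Leaving out the libraries low in cerebellar markers, an alternative chosen after seeing the data, called 5 genes with age in wild types and turned Drd1 to log2 -0.32. Leaving out single libraries, Drd1 ranged from log2 -0.025 (without WT-Veh replicate 1) to 0.41 with age in wild types and from -0.071 (without HT-Veh replicate 4) to 0.16 in heterozygotes. Drd4 with age in heterozygotes (adjusted p = 0.050 by limma) was called without a filter on low values, after rescaling, with the replicate block, with all groups in one fit, and without P10-HT replicate 4 or HT-Veh replicate 5, at log2 1.36 to 1.75. The causes were not tested.

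Replicate numbers were not taken as pairs. In no comparison did every same-numbered pair of libraries correlate in its deviations by more than 0.1 (highest 0.41, lowest -0.30). In none did every library correlate best with its own number. Between HT-Flx and HT-Veh, however, same-numbered pairs had a mean r of 0.18, against -0.04 for other pairs. There 3 of 5 pairs exceeded 0.1, and whether these libraries were paired is not known. With the replicate number as a block, 7 genes were called at P10 in place of 4, and 1355 between HT-Flx and HT-Veh in place of 0, and Ppp1r1b between HT-Flx and WT-Flx was not called (adjusted p = 0.0507 by limma). Other gene counts moved by over 1.5 times between HT-Flx and HT-Veh (5916 with all groups in one fit, 2 with correction and block), between HT-Flx and WT-Flx (6388 after correction of 11330, 5234 with the block too), between WT-Flx and WT-Veh (1400 without WT-Veh replicate 1, 624 without replicate 5), at P10 (0 to 8) and in the fluoxetine interaction (0 to 7639, and 0 to 7667 with single libraries left out, 0 in 8 of 20 of them). They reached 1 in the vehicle comparison and 2 for genotype by age. With depth unknown, the precision of the low genes Drd3 and Drd4 rests on the spread between mice alone.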
